A study of Mus musculus with 6 samples.

Results

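The Gadd45 genes (growth arrest and DNA damage inducible 45) were described in adult mouse retina without the transcription factor Onecut2. The mouse genome has 3 of them, Gadd45a, Gadd45b and Gadd45g, and every probe set that the platform annotation gives to 1 of these symbols was taken, whatever its level. This gave 5 probe sets of the 45101 on the array, and 3 genes of the 18193 that were named by a probe set with 1 symbol. A probe set is a group of short oligonucleotides read together as 1 value. Gadd45b had 3 probe sets, and Gadd45a and Gadd45g had 1 each. The family was selected on its own OC2-KO against OC2-WT values on these arrays, so those values are given as a description and without a test.

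Each array was hybridised with RNA of isolated retina from adult mice, with 3 arrays of OC2-KO and 3 of OC2-WT. OC2-KO mice were genotyped for a null allele of Onecut2, a cut-domain and homeodomain factor needed for normal numbers of horizontal cells, the inhibitory interneurons of the outer retina. OC2-WT mice were their wildtype littermates. No agent, Cre driver or second allele was named for either genotype, and age in days, strain, sex and any pooling of animals were not given for these arrays. Whether the 3 arrays of a genotype stand for 3 animals is not stated in the labels, and p-values therefore describe array-to-array spread, part of which may be technical.

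Gadd45 proteins are small acidic proteins without known enzyme activity that act by binding others. They bind PCNA, the sliding clamp of DNA replication and repair, the cell cycle inhibitor p21, and the mitotic kinase CDK1 with cyclin B1. They also bind and activate MAP3K4 (MTK1), which lies upstream of the p38 and JNK kinases, and GADD45B can inhibit the JNK activator MAP2K7. The genes are induced within a short time of many stresses: Gadd45a by p53, FOXO and ATF4 after DNA damage and starvation, Gadd45b by NF-kappaB and by SMAD proteins downstream of TGF-beta, and Gadd45g by cytokines. In neurons of the mouse hippocampus Gadd45b is induced by activity and takes part in active DNA demethylation at growth factor genes.

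The 250 bases before each annotated start are shown so that the letters upstream of Gadd45b can be set beside those of Gadd45a and Gadd45g, which did not share its difference. The sequences are those of RefSeq on build GRCm38.p6, written 5′ to 3′ on the strand of the gene, at chr6:67037408-67037657 (minus strand) for Gadd45a, chr10:80929841-80930090 (plus strand) for Gadd45b and chr13:51846425-51846674 (plus strand) for Gadd45g. Capitals mark matches to the motifs named after them.
Gadd45a: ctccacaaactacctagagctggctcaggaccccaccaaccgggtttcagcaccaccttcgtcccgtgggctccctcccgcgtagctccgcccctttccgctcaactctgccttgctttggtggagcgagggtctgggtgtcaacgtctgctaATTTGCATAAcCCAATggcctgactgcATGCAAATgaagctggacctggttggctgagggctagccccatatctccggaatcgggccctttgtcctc
Gadd45b: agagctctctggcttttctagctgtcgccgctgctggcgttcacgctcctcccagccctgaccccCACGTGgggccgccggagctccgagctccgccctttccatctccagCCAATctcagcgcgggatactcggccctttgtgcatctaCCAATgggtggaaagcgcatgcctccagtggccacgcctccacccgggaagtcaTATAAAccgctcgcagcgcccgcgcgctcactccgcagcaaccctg
Gadd45g: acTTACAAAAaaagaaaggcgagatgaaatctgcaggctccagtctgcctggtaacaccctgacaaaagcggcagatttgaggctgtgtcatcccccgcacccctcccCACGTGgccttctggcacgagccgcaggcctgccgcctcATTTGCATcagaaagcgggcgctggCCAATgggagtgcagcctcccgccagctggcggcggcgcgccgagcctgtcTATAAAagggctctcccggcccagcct
The CCAAT box (CCAAT) was found 1 time before Gadd45a, 2 times before Gadd45b and 1 time before Gadd45g, and in 33.8% of all 32851 promoter windows of this length, searched like the others on both strands. The octamer (ATTTGCAT) was found 2 times before Gadd45a, once on each strand, and 1 time before Gadd45g, against 1.60% of all windows. Gadd45b and Gadd45g each had 1 E-box of the form CACGTG (6.02% of windows) and 1 TATA box (TATAAA, 12.4% of windows), and Gadd45a had neither. The TATA box covered bases -46 to -41 of Gadd45b and -27 to -22 of Gadd45g, counted from the base before the start as -1. A C/EBP site (TTNCNNAA, 36.8% of windows) was matched 1 time before Gadd45a, where it overlapped an octamer, and 1 time before Gadd45g. None of the 3 windows held the letters of an AP-1 site (TGANTCA, 6.75% of windows), a CRE (TGACGTCA, 1.55%), a STAT site (TTCNNNGAA, 7.02%), a SMAD box (CAGACA, 17.1%), a FOXO site (GTAAACA, 3.17%), the Onecut core (ATCAAT, 6.72%) or an NF-kappaB site (7.25%). The windows held 11 CpG in Gadd45a, 22 in Gadd45b and 16 in Gadd45g, with a median of 6 over all windows, and a GC content of 59.2%, 65.2% and 62.0%, with a median of 52.4%. A match is a description of the letters and says nothing of binding, and no match says only that those letters are not in this window.

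Values are log2 intensities, and a probe set was kept for tests where its mean exceeded 7 in either genotype, which left 21176 probe sets and 11065 named genes. Limma with Benjamini-Hochberg adjustment passed 0 of them between the genotypes (0%; smallest adjusted p = 0.210), as did the methods' t-test, and 209 had an unadjusted limma p under 0.05 (887 with the replicate number as a block). In 364 probe sets (1.72%) every OC2-KO array was above every OC2-WT array, and in 330 (1.56%) every OC2-KO array was below. Arrays with the same replicate number varied together and are called pairs. By Xist and the Y-linked Eif2s3y, pair 1 was male in pattern and pair 2 female, and in pair 3 the OC2-KO array was male and the OC2-WT array female. The 3' minus 5' difference of Actb, a sign of RNA degradation, was 3.39 and 2.95 log2 units in the OC2-KO and OC2-WT arrays of pair 3 and 0.71 to 1.41 elsewhere (exact permutation test between genotypes, two-sided, p = 0.6, smallest possible 0.1). The rod genes Sag, Gnat1, Pde6b and Nrl had mean log2 intensities of 15.02 to 15.83 by genotype, so transcripts that define retina were present. The targeted gene was higher in OC2-KO on its 3 probe sets, by 2.27 to 2.84 log2 units. By the study's account its probes lie 3' of the sequence that is missing, so they check no label.

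Gadd45b stood higher in OC2-KO retina on both of its probe sets that passed the filter, by about 2-fold, and the genotypes did not overlap on either. On 1450971_at the log2 intensity was 10.02, 9.33 and 8.75 in OC2-KO replicates 1, 2 and 3, against 8.42, 8.38 and 7.99 in OC2-WT replicates 1, 2 and 3. The lowest OC2-KO array lay 0.33 above the highest OC2-WT array, and the spread was wider in OC2-KO, where replicate 1 was the highest. The means were 9.37 ± 0.63 in OC2-KO and 8.26 ± 0.24 in OC2-WT (SD, n = 3 each), a difference of 1.10 ± 0.35 (SE of the limma fit) or 2.15-fold. In linear intensity this was 704 ± 307 in OC2-KO and 310.2 ± 48.3 in OC2-WT (SD, n = 3 each).

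The second probe set, 1449773_s_at, whose suffix marks oligonucleotides shared by several transcripts, gave values closer together. It read 8.36, 8.34 and 8.17 in OC2-KO replicates 1, 2 and 3, against 7.61, 7.32 and 7.21 in the same OC2-WT replicates. Here the gap between the genotypes was 0.56, wider than on 1450971_at, and no OC2-KO array stood apart. The means were 8.29 ± 0.10 in OC2-KO and 7.38 ± 0.21 in OC2-WT (SD, n = 3 each), a difference of 0.91 ± 0.21 (SE) or 1.88-fold. The share of kept probe sets with a larger OC2-KO minus OC2-WT difference was 0.491% for 1450971_at and 0.817% for 1449773_s_at. Both ranks come from the values that selected the family and support nothing further.

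The third Gadd45b probe set, 1420197_at, did not pass the filter and did not follow the other two. It read 7.49, 6.10 and 6.02 in OC2-KO replicates 1, 2 and 3, against 6.04, 6.29 and 6.56 in OC2-WT, so only OC2-KO replicate 1 lay above the OC2-WT range. The means were 6.53 ± 0.83 in OC2-KO and 6.30 ± 0.26 in OC2-WT (SD, n = 3 each), and the difference of 0.24 ± 0.48 (SE) turned to -0.24 without that array. A MAS5 value at this level is near background, and no detection call was analysed here.

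**Figure D1:**
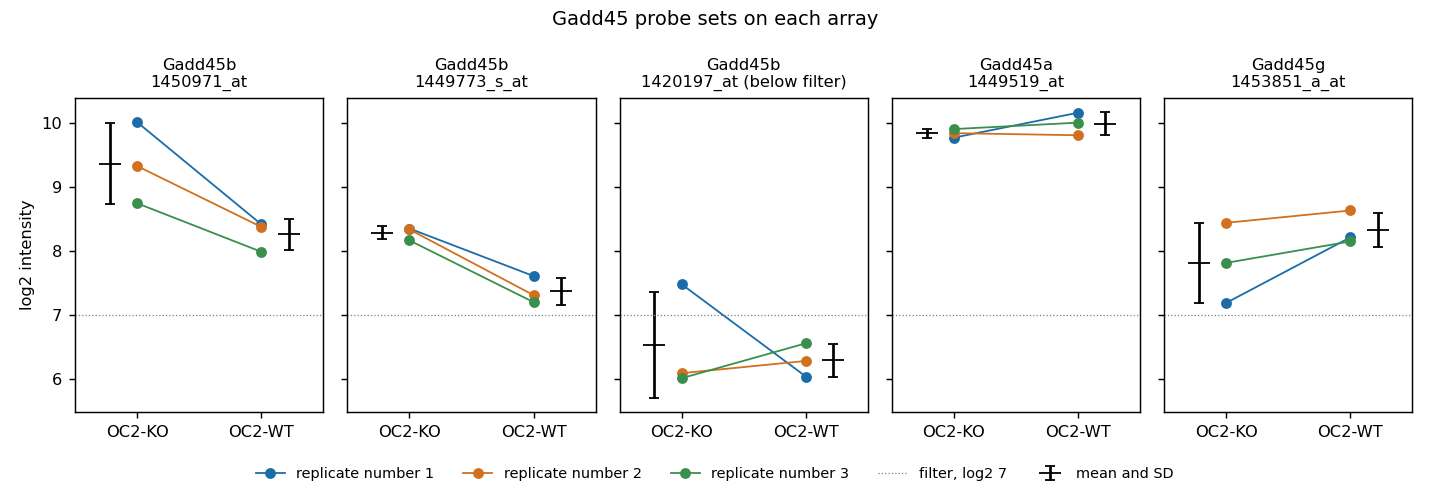
Log2 intensity (vertical axis) of the 5 Gadd45 probe sets on each array, with OC2-KO left of OC2-WT in each panel, lines joining arrays of the same replicate number, bars in black for the genotype's mean and SD (n = 3) and a dotted line at the filter of 7. On Gadd45b 1450971_at and 1449773_s_at the 3 OC2-KO points lie above the 3 OC2-WT points, by gaps of 0.33 and 0.56, while in the other 3 panels the genotypes overlap.

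Gadd45a, the family member induced by p53 after DNA damage, did not separate the genotypes. Its probe set 1449519_at read 9.78, 9.85 and 9.91 in OC2-KO replicates 1, 2 and 3, against 10.17, 9.81 and 10.01 in OC2-WT. The values overlapped, and the 3 OC2-KO arrays lay close together. In linear intensity the means were 920.0 ± 42.7 in OC2-KO and 1027 ± 125 in OC2-WT (SD, n = 3 each), and the log2 difference was -0.15 ± 0.20 (SE). Over 18 alternative settings this difference stayed between -0.25 and -0.034, below 0 in each.

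Gadd45g, the member best known as induced by cytokines and active in development, was lower in OC2-KO on average, with overlapping values. Its probe set 1453851_a_at read 7.19, 8.45 and 7.82 in OC2-KO replicates 1, 2 and 3, against 8.22, 8.64 and 8.15 in OC2-WT. OC2-KO replicate 1 was the lowest of the 6 arrays, and OC2-KO replicate 2 lay above 2 of the OC2-WT arrays. The means were 7.82 ± 0.63 in OC2-KO and 8.34 ± 0.26 in OC2-WT (SD, n = 3 each), a difference of -0.52 ± 0.35 (SE). Without OC2-KO replicate 1 the difference was -0.20, without OC2-KO replicate 2 it was -0.83, and with a term for the sex pattern it was -0.33. The suffix of this probe set marks alternative transcripts of 1 gene, so their shares cannot be told apart.

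Within pairs, both kept Gadd45b probe sets were higher in OC2-KO in 3 of 3, which their lack of overlap fixed in advance. The differences in pairs 1, 2 and 3 were 1.60, 0.95 and 0.76 on 1450971_at and 0.74, 1.03 and 0.96 on 1449773_s_at. Pairs 1 and 2 match in sex pattern and pair 3 does not, and the part of sex in these differences was not tested. Gadd45g was lower in 3 of 3 pairs, by differences of -1.02, -0.19 and -0.33, and Gadd45a differed by -0.39, 0.033 and -0.10. Pair 1 thus held the largest difference of each gene in size, except on 1449773_s_at, where it held the smallest. In a bulk sample of whole retina, fewer cells of a type and less RNA per cell cannot be told apart, and the cell type that carries these transcripts is not given by the arrays.

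Across the 6 arrays the 2 kept Gadd45b probe sets correlated at r = 0.88, and at 0.60 after the genotype means were removed. Gadd45b 1450971_at and Gadd45g had r = -0.64 over all arrays and -0.39 within genotypes, and Gadd45b 1450971_at and Gadd45a had -0.62 and -0.33. On Gadd45b 1449773_s_at these were -0.55 and -0.078 with Gadd45g, and -0.45 and 0.41 with Gadd45a. The sign within genotypes thus depends on the probe set for Gadd45a. Gadd45a and Gadd45g had 0.23 and -0.13. These correlations are descriptions over n = 6 arrays, which share genotype, pair and scaling.

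Gfap, Edn2, Cebpd and Cd44 are genes known to rise in retinal damage that the study names from these same arrays, so they are set beside Gadd45b as values only. The study also reports Gfap, Edn2 and Cebpd as higher by qPCR, and gives Cd44 from the arrays. C4b is left out, as the annotation gives its probe set a second symbol. Cebpd, a C/EBP transcription factor of the acute phase response, had on 1423233_at the order of arrays closest to Gadd45b 1450971_at. On 1423233_at it read 11.55, 10.44 and 9.82 in OC2-KO replicates 1, 2 and 3, against 8.17, 8.03 and 7.72 in OC2-WT, in both genotypes highest in replicate 1 and lowest in replicate 3, as on Gadd45b 1450971_at. The differences on 1423233_at were 3.38, 2.40 and 2.10 in pairs 1, 2 and 3, and its r with 1450971_at was 0.97 over all arrays and 0.99 within genotypes. The second Cebpd probe set, 1456605_at, did not keep that order. It read 8.30, 7.29 and 7.31 in OC2-KO replicates 1, 2 and 3, against 6.47, 6.17 and 6.85 in OC2-WT. Edn2, which encodes the vasoactive peptide endothelin 2, differed by 3.66, 2.97 and 2.76 in the same pairs, with r = 0.91 and 0.97.

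The glial genes followed Gadd45b less closely within genotypes. Gfap, the intermediate filament of astrocytes and reactive Müller glia, differed by 2.49, 1.42 and 0.28 in pairs 1, 2 and 3 on 1426508_at, and its r with Gadd45b 1450971_at was 0.57 over all arrays but -0.12 within genotypes. Cd44, a hyaluronan receptor of Müller glia, differed by 0.36, 1.37 and 1.51 on 1434376_at, with r = 0.64 and 0.16, and by 0.82, 1.38 and 0.76 on its second probe set 1423760_at, so its order of pairs depends on the probe set. On the second Gadd45b probe set, 1449773_s_at, r within genotypes was 0.55 with Cebpd, 0.40 with Edn2, -0.73 with Gfap and 0.49 with Cd44, so the close likeness to Cebpd and Edn2 within genotypes was seen on 1450971_at and not on both.

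**Figure D2:**
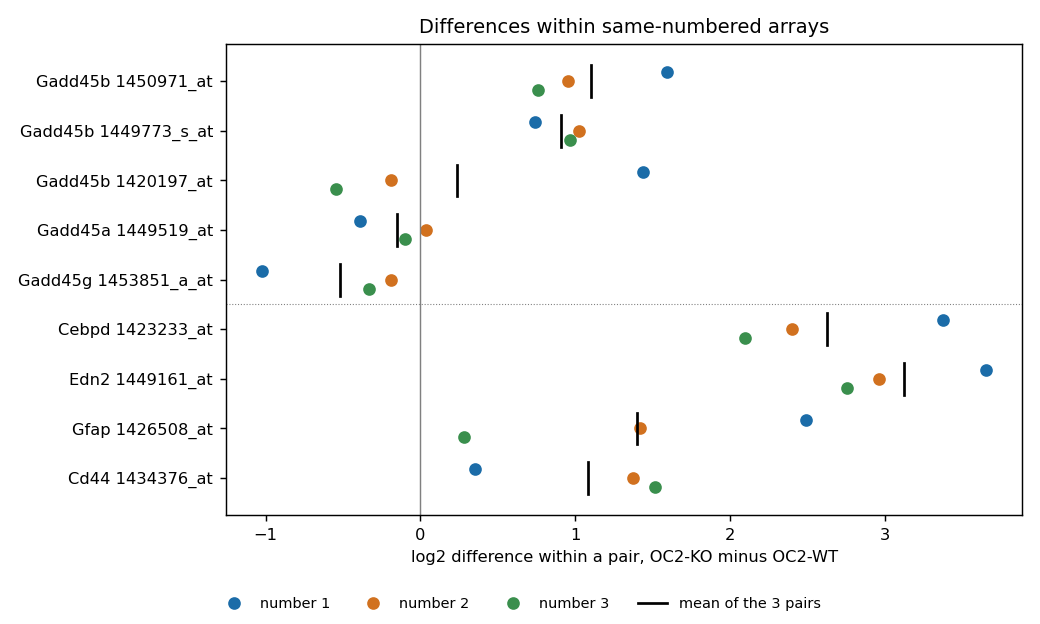
Log2 difference between OC2-KO and OC2-WT arrays of the same replicate number (horizontal axis) for the 5 Gadd45 probe sets, above the dotted line, and for 4 stress genes the study names, below it. Points are pairs, coloured by number, and black bars are the mean of the 3 pairs. On Gadd45b 1450971_at, Cebpd, Edn2 and Gfap the order is pair 1, then 2, then 3, while pair 1 is the lowest on Gadd45b 1449773_s_at and on Cd44 1434376_at, though not on the other Cd44 probe set.

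The genes most like each Gadd45 gene were taken by Pearson's r over the 6 arrays among 11064 genes, each by its brightest probe set past the filter. For Gadd45b they were Setdb2, a SET domain protein of the histone H3 lysine methyltransferase family (r = 0.99), Tnnt1, the slow skeletal troponin T (0.97), Cebpd (0.97), Antxr2, an anthrax toxin receptor that binds extracellular matrix (0.97), and Ap5b1, a subunit of the AP-5 adaptor (0.97). Their OC2-KO minus OC2-WT differences were 0.81 for Setdb2, 0.68 for Tnnt1, 2.63 for Cebpd, 1.26 for Antxr2 and 0.57 for Ap5b1. All but Tnnt1 had no overlap between the genotypes, while 1.95% of all genes were higher without overlap. These genes were picked for likeness to Gadd45b values that themselves separate the genotypes. Their lack of overlap was therefore largely fixed by the picking and is given as a description only. In all, 59 genes had r above 0.9 with Gadd45b.

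For Gadd45a the 5 were Rpap3, an assembly factor of RNA polymerase II (r = 0.98), Slc10a7 (0.97), the cholesterol synthesis enzyme gene Hmgcs1 (0.96), the arginine methyltransferase gene Prmt2 (0.96) and Rprm, a p53-induced mediator of G2 arrest (0.95), out of 24 genes above 0.9. Their differences ran from -0.36 to -0.12, and each overlapped between the genotypes. For Gadd45g they were the forkhead gene Foxn3 (r = 0.995), Rap1gap2 (0.99), Isl1, a LIM homeodomain factor of retinal ganglion, amacrine and bipolar cells (0.99), Tmem120b (0.99) and Pck2, the mitochondrial phosphoenolpyruvate carboxykinase (0.99), out of 319 genes above 0.9. Those differences ran from -0.79 to -0.27, again with overlap. Over so few arrays, r says that values run in the same order and spacing, and no more.

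The genes around Gadd45 in function were read from 10 lists, each gene by its brightest probe set, and a gene of a list is called where its unadjusted limma p was under 0.05. Over the lists 95 of 139 genes passed the filter, 0 of them had an adjusted p under 0.05 and 1 had an unadjusted p under 0.05, which was lower (the methods' t-test gave 0 after adjustment and 3 before). Over all genes that p was reached by 81 (0.732%) that were higher and by 28 (0.253%) that were lower. The genotypes did not overlap in 216 genes (1.95%) that were higher and in 202 (1.83%) that were lower, and the median difference of all genes was -0.0048. With the replicate number as a block, which gave 238 genes (2.15%) higher and 153 (1.38%) lower, 8 genes of the lists had an unadjusted p under 0.05 and 0 passed after adjustment.

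No partner or effector kinase of Gadd45 was called. Of 20 listed, 14 were tested, 7 with positive and 7 with negative differences, with a median of -0.0099, and the genotypes overlapped in each. Pcna, the clamp that Gadd45 proteins bind, differed by 0.15 ± 0.36 (SE), and Npm1, the nucleolar chaperone nucleophosmin, which binds GADD45A, by 0.029 ± 0.19. Map3k4, the kinase that Gadd45 proteins activate, was 10.37 ± 0.38 in OC2-KO and 10.60 ± 0.36 in OC2-WT (SD, n = 3 each), a difference of -0.23 ± 0.29 (SE). Gadd45gip1, the nuclear partner of GADD45G that is also part of the mitochondrial ribosome, differed by -0.17 ± 0.31.

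The kinases below Map3k4 differed by -0.28 to 0.17. The p38 activators Map2k3 and Map2k6 differed by -0.087 and 0.17 and Map2k4, which acts on JNK and p38, by 0.11. The p38 genes Mapk14, Mapk11 and Mapk12 differed by 0.042, 0.039 and -0.049, the JNK genes Mapk8, Mapk9 and Mapk10 by 0.079, -0.21 and -0.28, and Map3k5 (ASK1), another kinase upstream of both, by -0.052. Cdkn1a, which encodes p21, Cdk1, Ccnb2 and Mapk13 did not pass the filter, and Map2k7 and Ccnb1 had no value here.

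Among the regulators of Gadd45 transcription, 10 of 14 were tested, with a median difference of 0.10 and 0 called. Egr1 differed by 0.51 ± 0.35 (SE), Brca1 by 0.32 ± 0.33 and Smad2 by 0.22 ± 0.32, while Smad3 differed by -0.24 ± 0.32. Within pairs 1, 2 and 3 Smad2 differed by 0.23, 0.22 and 0.23 and Smad3 by -0.24, -0.20 and -0.27, and with the block 0 of the 10 regulators and 0 of the 14 partners and kinases were called. Rela, the p65 subunit of NF-kappaB, differed by 0.095 ± 0.20, Atf4 by 0.11 ± 0.26, and the FOXO genes Foxo1 and Foxo3 by -0.12 each. Myc, which represses Gadd45a, did not pass the filter. The products of several of these genes are controlled after transcription, which mRNA levels do not show.

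Targets that share those regulators gave no call either. Of 13 tested p53 targets, 0 were called, with a median of 0.063. Plk2, a polo-like kinase, differed by 0.44 ± 0.44 (SE; ± 0.16 and limma, unadjusted p = 0.0339, adjusted p = 0.999 with the block), the p53 ubiquitin ligase gene Mdm2 by 0.26 ± 0.26 and the RNA-binding protein gene Zmat3 by -0.31 ± 0.29. Only 5 of 13 NF-kappaB targets passed the filter, with 0 called and a median of 0.17, among them Nfkbia, the inhibitor of NF-kappaB, which differed by 0.24 ± 0.21, and Nfkb2 (0.63 ± 0.57). Nfkb2 (means 7.29 in OC2-KO and 6.66 in OC2-WT) passed the filter through OC2-KO alone, which fixed its sign. In pairs 1, 2 and 3 Nfkb2 differed by 0.99, -1.18 and 2.07. Of the 8 below the filter, 7 had positive differences and 1 a negative one, and with them the median was 0.55. The chemokine gene Ccl2, at 5.52 ± 0.60 in OC2-KO and 2.48 ± 0.73 in OC2-WT (SD, n = 3 each), was the 1 of these without overlap. In the other lists, Uhrf1 (means 3.69 in OC2-KO and 1.65 in OC2-WT) and Myc (3.70 and 5.32) were below the filter without overlap too. Such values are near background. The matching shares over all genes below the filter were not computed, so these counts cannot be read as an excess. Of the 9 other growth arrest and DNA damage inducible genes, all were tested and 0 called, with a median of 0.061. Ddit4l, an inhibitor of mTOR signalling, differed by 0.28 ± 0.28, Ppp1r15a (GADD34), the phosphatase subunit that restores translation after stress, by 0.24 ± 0.24, and Ddit3 (GADD153, CHOP), a C/EBP family factor of endoplasmic reticulum stress, by 0.095 ± 0.21.

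Immediate early genes, induced like Gadd45b within minutes to hours of a stimulus, gave 0 calls among 12 tested of 19, with a median of 0.11. Junb, an AP-1 subunit, read 8.83, 8.34 and 8.35 in OC2-KO replicates 1, 2 and 3, against 8.11, 8.10 and 7.08 in OC2-WT, without overlap, at a difference of 0.75 ± 0.34 (SE; limma, unadjusted p = 0.0626, adjusted p = 1.00; with the block 0.0205 and 0.999). Atf3, a stress-induced ATF/CREB factor, differed by 0.49 ± 0.48 (limma with the block, unadjusted p = 0.0302, adjusted p = 0.999) and Fos by 0.19 ± 0.30, both with overlap. So 1 of 12 of these genes had no overlap, and over all genes 1.95% were higher and 1.83% lower without overlap. With 1 such gene, no excess over that background can be read.

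Id2 was the 1 gene of the lists with an unadjusted p under 0.05 without the block. Id2, a helix-loop-helix inhibitor of differentiation controlled by BMP and TGF-beta, read 8.57, 8.92 and 8.93 in OC2-KO replicates 1, 2 and 3, against 9.29, 9.55 and 9.56 in OC2-WT. The genotypes did not overlap, which fixed that Id2 was lower in 3 of 3 pairs. The difference was -0.66 ± 0.22 (SE; limma, unadjusted p = 0.0183, adjusted p = 1.00). The other 10 tested of the 16 TGF-beta ligands, receptors and SMAD targets differed by -0.15 to 0.17, with Smad7, the inhibitory SMAD, at -0.15 ± 0.23 and Ccn2 (CTGF) at 0.17 ± 0.32.

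Of 12 phosphatases and targets of p38 and JNK, 10 were tested, 0 were called, 8 differences were negative and the median was -0.14. Dusp4, a nuclear phosphatase of MAP kinases, was 9.96 ± 0.28 in OC2-KO and 10.47 ± 0.088 in OC2-WT (SD, n = 3 each) without overlap, a difference of -0.51 ± 0.23 (SE; limma, unadjusted p = 0.0579, adjusted p = 1.00; with the block 0.0245 and 0.999). Dusp10 and Dusp1, phosphatases of p38 and JNK, differed by -0.30 ± 0.25 and -0.30 ± 0.28, with overlap, and Mapkapk2, the kinase that p38 activates, by 0.094 ± 0.22.

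The enzymes of DNA methylation and demethylation, the process in which Gadd45b takes part in the mouse brain, gave 0 calls among 11 tested of 15, with a median of 0.021. Mbd4, a thymine glycosylase that GADD45 proteins work with in zebrafish, was 7.48 ± 0.062 in OC2-KO and 7.89 ± 0.092 in OC2-WT (SD, n = 3 each) without overlap, a difference of -0.40 ± 0.19 (SE; limma, unadjusted p = 0.0738, adjusted p = 1.00; with the block 0.0469 and 0.999). Tet1 and Tet2, the 5-methylcytosine oxidases, differed by -0.22 ± 0.30 and 0.021 ± 0.24, and Dnmt1, the maintenance methyltransferase, by 0.060 ± 0.20. The cytidine deaminase genes Apobec1 (1.84 ± 0.82) and Apobec2 (1.13 ± 0.61) had the widest errors of the 11 tested, and both overlapped. Both passed the filter through OC2-KO alone, with OC2-WT means of 5.38 and 6.89, which fixed the sign of their differences. With the block their unadjusted p were 0.0344 and 0.0256 and their adjusted p 0.999 (limma), though neither was higher in pair 2. Of the 7 proteins with the L7Ae fold that Gadd45 proteins share with ribosomal and RNA-binding proteins, 3 were tested (Rpl7a, Nhp2 and Secisbp2), with 0 called and differences of -0.030 to 0.065.

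**Figure D3:**
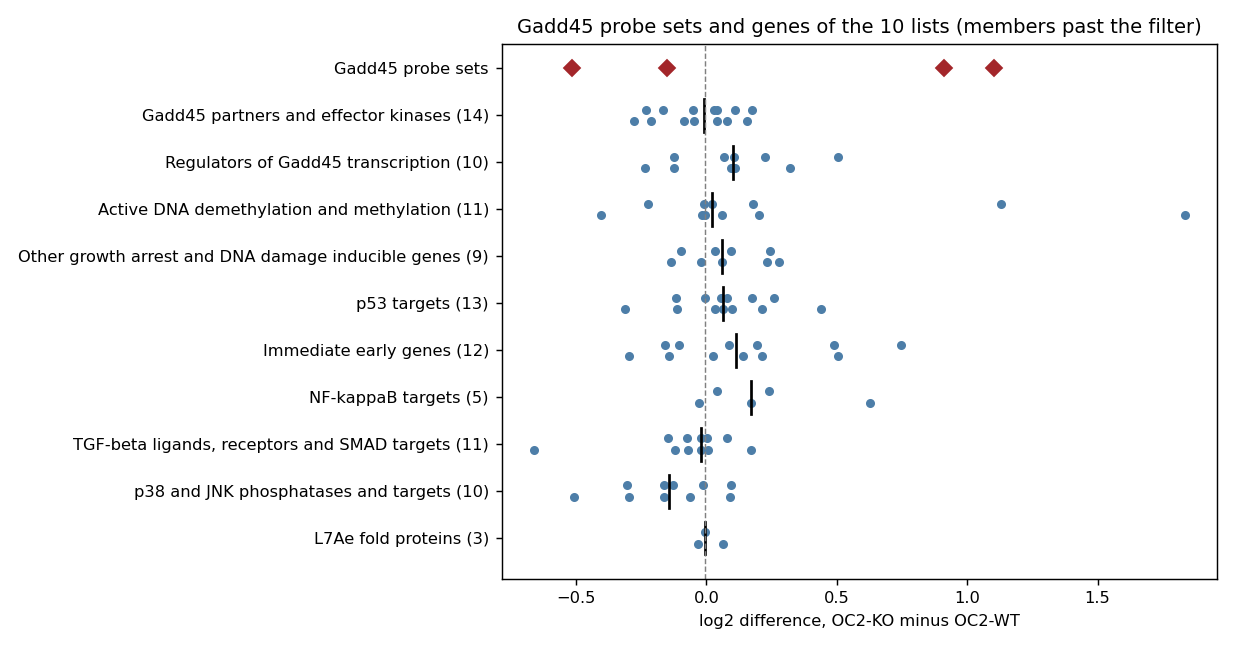
Log2 difference, OC2-KO minus OC2-WT (horizontal axis), of the 4 Gadd45 probe sets past the filter (diamonds) and of the genes of 10 lists past the filter (points, 1 per gene, with the number tested in brackets). Black bars are list medians and the dashed line is the median of all genes, -0.0048. The 2 Gadd45b probe sets lie at 0.91 and 1.10, and the list medians between -0.14 and 0.17. The highest of these, of the NF-kappaB targets, is 0.55 without the filter, where values near background enter.

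The genes next to each Gadd45 gene on the chromosome were also read, a choice made after the other values were seen. Gadd45b lies between Lmnb2, which encodes lamin B2 of the nuclear envelope, and Gng7, a G protein gamma subunit gene. Lmnb2 was lower in OC2-KO without overlap, as were 1.83% of all genes, by -1.09 ± 0.34 (SE), while Gng7 differed by -0.049 ± 0.33. Next to Gadd45a, Gng12 differed by 0.48 ± 0.33 and Serbp1 by 0.056 ± 0.31, and next to Gadd45g, Sema4d differed by -0.25 ± 0.24 and Diras2 by -0.19 ± 0.23, each with overlap.

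Marker lists of other cell types were read beside Gadd45b, and 0 of their markers passed the adjusted threshold in limma. The 7 tested of 10 microglia markers were all higher in OC2-KO on average, with a median of 0.46, and their summed intensity was 3403 to 4382 in OC2-KO arrays and 2545 to 3067 in OC2-WT arrays. Among them, Tmem119 (means 7.02 in OC2-KO and 6.18 in OC2-WT) and C1qb (7.33 and 6.95) passed the filter through OC2-KO alone. The filter thus fixed the sign of those differences. Within pairs, C1qb differed by -0.65 in pair 3 and Cx3cr1 by -0.070 in pair 1. Tyrobp, the microglial signalling adaptor, was the 1 of the 7 without overlap, higher by 1.05 (limma, unadjusted p = 0.00945, adjusted p = 1.00). For this and the other marker lists the background without overlap is 1.95% of all genes higher and 1.83% lower. Aif1 and P2ry12 were below the filter, and none of the measured markers was at 0. The 4 tested of 5 horizontal cell markers had a median of -0.59 and a summed intensity of 3976 to 6352 in OC2-KO and 7143 to 8185 in OC2-WT, and Calb1 was the 1 of the 4 without overlap. Calb1 was also the brightest (means 11.58 in OC2-KO and 12.34 in OC2-WT), so it weighs most in that linear sum, which is no separate sign. The study names Calb1, like Gfap, from these same arrays, and also reports fewer calbindin-stained horizontal cells and more GFAP staining. Onecut1 (means 5.56 in OC2-KO and 7.36 in OC2-WT) passed the filter through OC2-WT alone, which fixed its sign. The 4 lens markers overlapped and had a median of 0.94, but differed in pairs 1, 2 and 3 by medians of -0.61, 0.87 and 2.67, with sums of 30125 to 46572 in OC2-KO and 4883 to 55065 in OC2-WT, and without OC2-WT replicate 3 the median was 0.023. The 4 tested of 6 vascular markers were higher on average, with a median of 0.23 and sums of 1977 to 3772 in OC2-KO and 1576 to 3109 in OC2-WT. The 3 tested of 4 astrocyte markers had a median of 0.15, with Gfap the 1 without overlap and sums of 17743 to 28679 in OC2-KO and 16517 to 29449 in OC2-WT. The 3 tested of 5 pigment epithelium markers had a median of -0.39, with sums of 12306 to 61020 in OC2-KO and 20695 to 74531 in OC2-WT. Leaving out 1 array turned the sign of these medians: the vascular one was -0.011 without OC2-KO replicate 2 and -0.075 without OC2-WT replicate 1, the astrocyte one -0.023 without OC2-KO replicate 3, and the pigment epithelium one 0.10 without OC2-KO replicate 1 and 0.25 without OC2-WT replicate 3. None of the 3 red blood cell markers was tested. Müller glia markers (7 of 7 tested, median 0.016), ganglion cell markers (6 of 7, -0.012) and rod markers (4 of 5, 0.097) lay closer to the median of all genes. Their medians changed sign as well when arrays or pairs were dropped in turn. The rod median then ranged widely, from -0.28 to 0.58. The Müller glia median ranged from -0.12 to 0.15 and the ganglion cell median from -0.13 to 0.12. The part of these cell types in the Gadd45b difference was not tested. Nor was that of RNA quality, for which the 3' minus 5' difference of Actb was higher in OC2-KO by 0.30, 0.029 and 0.44 in pairs 1, 2 and 3. In the same pairs Gadd45b differed by 1.60, 0.95 and 0.76 on 1450971_at and by 0.74, 1.03 and 0.96 on 1449773_s_at.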

How the data were processed

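The authors hybridised amplified, biotin-labelled total RNA to Affymetrix mouse genome arrays and normalized the scans with MAS5, of unstated version. Each deposited column holds the linear intensity of 45101 probe sets on 1 array, scaled to a 2% trimmed mean of 500, so a shift shared by all genes cannot be seen. Detection calls and scanner files were not analysed here.

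Groups came from the genotype in the sample labels. Intensities were put on the log2 scale without 64 control probe sets, and probe sets with a mean above 7 in either genotype were kept, as in the study's methods. Differences were fitted with limma 3.58.1 (lmFit and eBayes, R 4.3.3, 4 residual degrees of freedom, two-sided) and adjusted by Benjamini-Hochberg over the 21176 probe sets kept. The fit was tested on simulated data. The members and the gene lists were chosen with earlier results of these data known. Named genes were every Gadd45 probe set, the 5 genes most like each Gadd45 gene, every tested partner, and up to 6 members per list by smallest p, of which some are not printed. Ddx3y had no probe set with 1 symbol, so Eif2s3y was read for sex. Promoters came from RefSeq on GRCm38.p6, whose gene table gave only names and neighbours otherwise. No 2 arrays were identical.

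Whether the number in a sample title pairs arrays was checked first: after the genotype mean was removed, r was 0.576, 0.590 and 0.585 for arrays of the same number and -0.429 to -0.135 for the rest. The labels do not say what a number marks, so the pairing rests on these correlations. Alternatives were quantile normalization or median centring, no filter or one at 8, a floor at 6, the replicate block, a sex term, array weights, an intensity trend, the methods' t-test, averaged probe sets per gene, and leaving out each array or pair.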

Additional observations from a re-analysis of the deposited data

How the results depend on the processing

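No probe set passed the adjusted threshold in limma under any alternative, or in the methods' t-test, which was run on the main setting. The unadjusted count of 209 became 1144 without a filter, 127 with a filter at 8, 436 with array weights and 300 by the methods' t-test, and ran from 209 to 560 when arrays or pairs were left out, the highest without OC2-KO replicate 2. With the replicate block it was 887, the pairing leaving 2 residual degrees of freedom. Among the genes of the lists, the count of 1 became 8 with the replicate block, 4 with array weights, 4 when probe sets were averaged per gene, 3 without a filter, 3 by the methods' t-test and 2 with a filter at 8, median centring or an intensity trend, and ran from 0 to 3 over the leave-outs. It was 0 without OC2-KO replicate 1, without OC2-WT replicate 3 or without pair 3. The filter moved the median of the NF-kappaB targets, 0.17 with it and 0.55 without, where values near background enter.

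Over the 18 alternatives the Gadd45b difference ran from 0.78 to 1.41 on 1450971_at and from 0.83 to 1.03 on 1449773_s_at. The lowest 1450971_at value was that without OC2-KO replicate 1. As the genotypes did not overlap on either probe set, leaving out arrays or pairs could not turn its sign. The filters, the floor, the block and the intensity trend left the difference itself unchanged. Its constant sign is therefore a description and no support. The block gave the same differences with an SE of 0.21 on 1450971_at, 0.16 on 1449773_s_at and 0.21 on Gadd45g. Gadd45g stayed below 0, between -0.83 and -0.20. Probe set 1420197_at ran from -0.37 to 0.63 and has no value with a filter at 8 or with array weights. MAS5 values near background, and 3 arrays per genotype, limit the precision.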
